A study of Populus trichocarpa with 15 samples.

Results

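Broad open regions were the stretches of at least 1000 bp that remained when the open-chromatin peaks of 14 leaf libraries of wild *Populus trichocarpa* were merged. Overlapping or touching peaks on chromosomes 1 to 19 were joined into 55198 regions, and 408 of these (0.739%) were 1000 bp wide or wider. The other 54790 regions were narrower. The regions were chosen by their merged width alone, a measured value, which is therefore given as a description only. The libraries came from separate branches of 3 trees growing in Oregon, black cottonwoods for which the labels name no treatment: 5 from tree 13, 5 from tree 14 and 4 from tree 4. Trees 13 and 14 were both stems of a single individual that had sprouted from a stump, and tree 4 was another tree of the same stand. Each side of every comparison was therefore a single stem or individual, and the p-values below describe these trees only. A further library, titled 1.1, was placed in no tree. Branches 13.4 and 14.1 had no age estimate in the study and were kept here.

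ATAC-seq uses a transposase that inserts sequencing adapters into DNA that is not tightly packed by nucleosomes or other proteins. In plants, accessible DNA of this kind is found mostly at promoters and other regulatory elements, where transcription factors bind. An accessible stretch much wider than a single element can hold several elements side by side, and a peak caller may then report either a single long peak or a row of shorter peaks. Each peak list held only the peaks past the caller's threshold. A region missing from a list was therefore not called there, and may still have been open. Read depth was not known.

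The 408 broad regions spanned 483 kb, which was 2.92% of the bases in all merged regions. Their median width was 1125.5 bp, with quartiles of 1053 and 1252 bp, against a median of 252 bp over all merged regions. The great majority lay near the limit: 276 were under 1200 bp, 102 were from 1200 to under 1500 bp and 30 were 1500 bp or more. The narrowest were on chromosome 7 at 10366821 to 10367821 and on chromosome 18 at 15203108 to 15204108, both 1000 bp wide. The first was called in 14 libraries and the second in 13. The next, on chromosome 10 at 19351292 to 19352293, was 1001 bp wide and was called in 14. The nearest regions below the limit were 999 bp wide and were called in 11, 14 and 11 libraries. They lay on chromosome 3 at 21149932 to 21150931, on chromosome 1 at 12019995 to 12020994 and on chromosome 1 at 44646925 to 44647924.

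Broad regions were, for the most part, touched by a peak in every branch. Of the 408, 340 (83.3%) were called in all 14 libraries by an overlap of at least 1 base, 53 in 10 to 13 libraries and 15 in fewer than 10. Over all merged regions 9722 (17.6%) were called in all 14. This difference is partly built in, because each added library can only widen a merged region. The count of 340 also rests on the overlap and on the weaker peaks. Only 86 of the 408 were called in all 14 when peaks of a library had to cover 50% of the region, and 20 of 90 when peaks were limited to a −log10 q of 10 or more. The share of all merged regions called in all 14 is not given at these settings. No broad region came from fewer than 4 libraries.

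**Figure D1:**
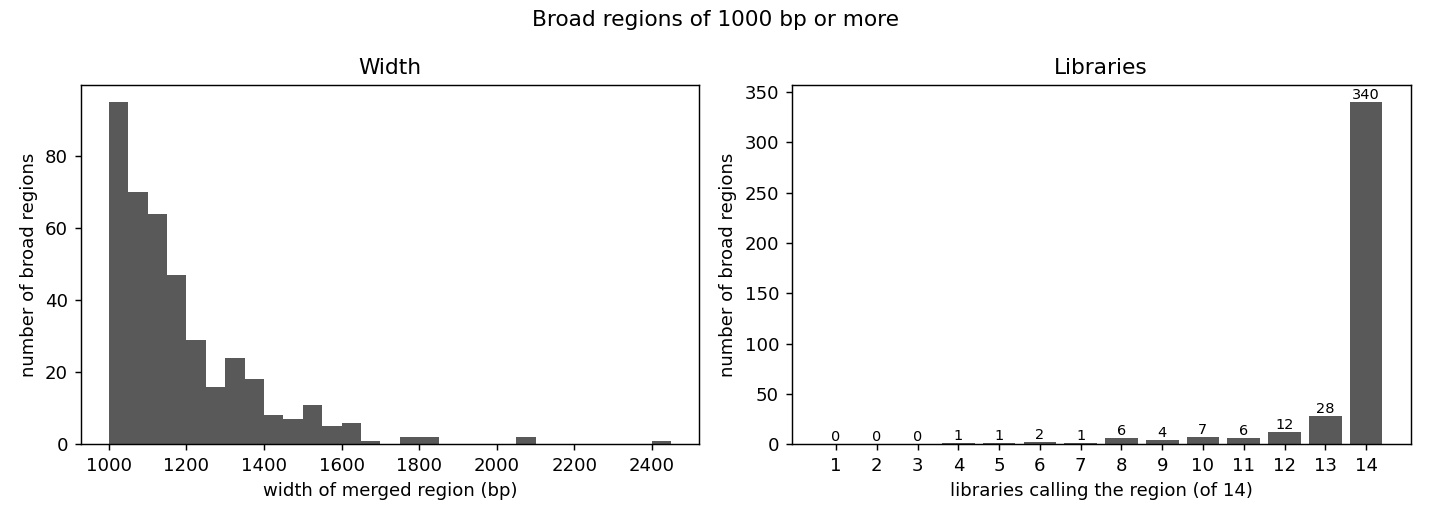
Width of the 408 broad regions in bp (left, number of regions per 50-bp class) and the number of libraries, of 14, that called each of them (right). Widths crowd toward the 1000 bp limit and end at 2410 bp, and 340 regions were called in all 14 libraries.

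The regions called in the fewest libraries were weak and patchy. The region on chromosome 6 at 24825958 to 24827000 (1042 bp) was called only in branches 13.2, 14.1, 14.3 and 4.2, so each tree called it at least once. Its peaks covered 424, 488, 102 and 427 bp in these libraries, and 713 of its bases were covered in only 1 of them. The −log10 q-value, the deposited significance of a peak, was between 2.33 and 3.77 for the best peak of each of the 4 libraries, not far above the lowest value of each list, which was at most 2.05. The region on chromosome 14 at 7103708 to 7104769 (1061 bp) was called in branches 13.3, 14.1, 14.3, 4.2 and 4.5, with −log10 q between 3.02 and 3.73. The region on chromosome 12 at 13972584 to 13973733 (1149 bp) was called in 6 libraries, and its widest peak was 972 bp in branch 14.3. Here too all 3 trees contributed, but tree 4 only through a peak of 110 bp in branch 4.5.

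The next question was whether a library calls a broad region as a single long peak or as several short ones. Both happened, usually at the same region. The 408 regions gave 5516 pairs of a region and a library that called it. In 3014 pairs (54.6%) the library had a single peak, in 2251 (40.8%) it had 2 peaks and in 242 (4.39%) it had 3. Only 8 pairs had 4 peaks and 1 pair had 5. In 374 regions (91.7%) some libraries had a single peak and others had several. Of the rest, 30 regions had a single peak in every library that called them, and 4 had several in every such library. The gaps between neighbouring peaks of a library within a broad region numbered 2763 and had a median of 247 bp, with quartiles of 189 and 340 bp and a range of 139 to 1076 bp. The smallest gap between neighbouring peaks anywhere in a list was between 138 and 146 bp, so gaps shorter than this were not reported by any list.

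Gaps of separate libraries often overlapped. Of 347 regions split in 2 or more libraries, 242 (69.7%) had at least 1 base that lay in a gap of every library that split them. In 168 regions at least 7 libraries shared a gap base. How much sharing gaps placed independently in each library would give was not computed. At the level of single bases, 214 regions held 2 or more separate stretches covered by at least 7 libraries, 183 held 1 such stretch and 11 held none. Only 46 regions had as much as 1000 bp covered by at least 7 libraries. Over all broad regions, 57.7% of the bases were covered in at least 7 libraries, 23.9% in all 14 and 11.6% in only 1. In 93 regions no base was covered in all 14 libraries.

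The widest region lay on chromosome 7 at 6806281 to 6808691 (2410 bp) and was called in all 14 libraries. Branch 4.3 called it as a single peak of 1907 bp, and the other 13 libraries split it. Branches 13.1, 13.3, 13.5, 14.1, 14.3, 4.4 and 4.5 had 2 peaks, branches 13.2, 13.4, 14.5 and 4.2 had 3, and branches 14.2 and 14.4 had 4. It held 3 stretches covered by at least 7 libraries, and 12 libraries shared a gap base. Its significance was low in every library, with a lowest, median and highest −log10 q of 3.51, 4.48 and 5.03. Ranked by score within each list, where 100 is the most significant peak, its best peak stood at a mean percentile of 35.9.

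The second widest was on the same chromosome at 7099783 to 7101855 (2072 bp). Branches 13.5 and 4.2 called single peaks of 2012 and 1913 bp, the former being the widest peak of any library, and no other library had a peak over 1000 bp there. The 12 libraries that split it had 2 or 3 peaks, covering from 734 bp (14.5) to 1606 bp (13.2). Its −log10 q ran from 4.79 to 8.96 with a median of 7.11, and the lowest 2 values, 4.79 and 4.88, belonged to the libraries with the single peak.

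On chromosome 13 at 4035610 to 4037666 (2056 bp) the pattern was more regular. Branch 4.2 had a single peak of 1995 bp, and the other 13 libraries all had 2 or 3 peaks with a gap base in common. The widest peak in those 13 ran from 922 bp (14.2) to 1357 bp (4.3). This was a highly ranked region, with −log10 q from 10.8 to 19.4 and a mean score percentile of 93.3.

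The region on chromosome 12 at 14759210 to 14761035 (1825 bp) was the most finely divided. Branch 13.3 called 5 peaks in it, branches 13.4, 14.3 and 14.4 called 4, and no library called fewer than 2. In branch 4.2 a peak of 1502 bp covered most of it. The −log10 q was 17.5 in branch 13.2 and 10.8 or less in the other 13 libraries, and 132 bp were covered in all 14.

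The fifth, on chromosome 1 at 5041183 to 5042984 (1801 bp), was divided evenly. Branches 13.2, 13.4, 13.5, 14.1, 14.3, 14.4 and 4.2 had a single peak of 1354 to 1772 bp, and the other 7 libraries had 2 peaks. Its −log10 q ran from 5.39 to 11.3 with a median of 7.77. In each tree some libraries called a single peak and others split it.

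**Figure D2:**
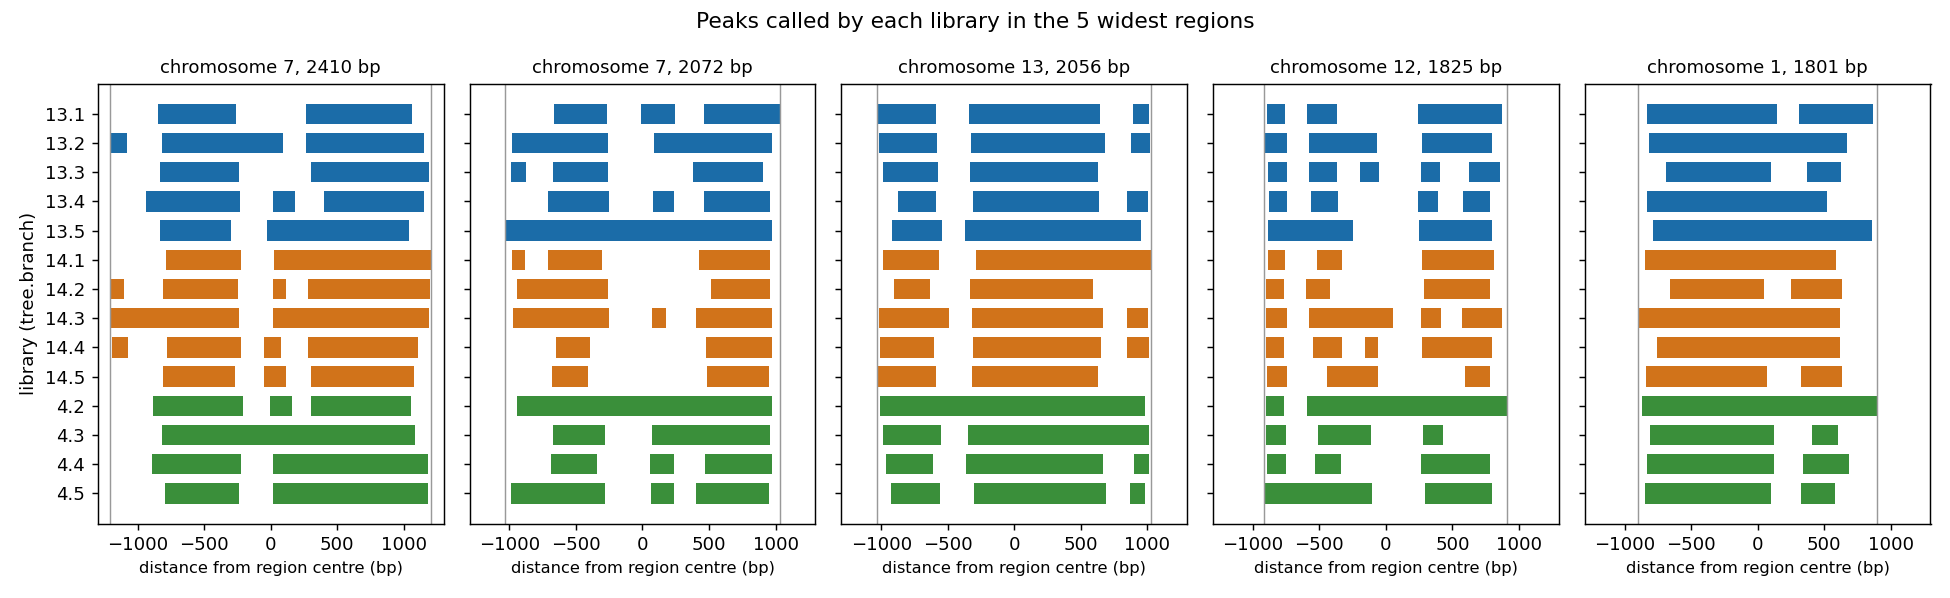
Peaks called by each of the 14 libraries (rows, colour by tree: blue 13, orange 14, green 4) in the 5 widest broad regions, as distance in bp from the centre of the region; grey lines mark its edges. The same gaps recur across libraries, while branch 4.2 bridges them in 3 of the 5 regions with a single peak and branch 13.5 in 2.

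On chromosome 11 at 17756089 to 17757693 (1604 bp) branch 4.2 called the whole width as a single peak and branch 14.2 called 4 peaks, the widest of 339 bp.

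A few further regions were named after their values had been seen. Besides the region on chromosome 12, 3 regions were split in all 14 libraries: on chromosome 5 at 14342927 to 14344554 (1627 bp) and at 19182383 to 19183547 (1164 bp), and on chromosome 11 at 18667078 to 18668285 (1207 bp). In each of these 3 there were 2 stretches covered by at least 7 libraries, and the widest single peak was 874, 641 and 679 bp. At the other end, 2 regions were called as a single peak of at least 1000 bp in all 14 libraries: chromosome 6 at 22308398 to 22310010 (1612 bp) and chromosome 13 at 4744914 to 4746325 (1411 bp). In these, 1259 and 1026 bp were covered in all 14 libraries, and −log10 q ran from 6.59 to 13.6 and from 5.80 to 8.50.

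About as many broad regions rested on the union of libraries as on any long peak. In 207 regions (50.7%) at least 1 library had a single peak of 1000 bp or more, and in 201 no library had. Such peaks numbered 559 in all. In 109 regions only 1 library had a peak of that width, and in 47 of these it was branch 4.2, whereas 21 regions had such a peak in 7 or more libraries. The widest region without one lay on chromosome 10 at 14806257 to 14807924 (1667 bp). All 14 libraries called it, with 1 to 3 peaks each that covered from 129 bp (4.3) to 1265 bp (13.5), and its widest peak was 807 bp in branch 13.1. Regions with a peak of at least 1000 bp were wider (median 1202 against 1070 bp) and were more often called in all 14 libraries (201 of 207 against 139 of 201). Their median score percentile was 75.6 against 55.2. The share with 2 or more stretches covered by at least 7 libraries was 53.6% and 51.2%. No test was made, since peak width formed the regions.

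The count of 408 depended on a few lists. Whichever single library was left out, 191 of the regions stayed at 1000 bp or more, 135 needed 1 particular library, 59 needed each of 2 and 23 needed each of 3 or more. Branch 4.2 was needed by 88 regions, branch 13.5 by 39, branch 13.2 by 38 and branch 14.3 by 33, against 3 for branch 4.3. Merging without branches 13.5 and 4.2, a pair chosen after seeing the data, left 269 broad regions.

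How often a library split the broad regions it called ranged from 17.0% in branch 13.5 to 55.9% in branch 14.1. In tree 13 it was 41.4% in branch 13.1, 54.9% in 13.2, 49.1% in 13.3, 48.8% in 13.4 and 17.0% in 13.5. In tree 14 it was 55.9%, 55.6%, 51.5%, 53.5% and 45.8% in branches 14.1 to 14.5. In tree 4 it was 22.7%, 40.2%, 50% and 46.3% in branches 4.2 to 4.5. Branches 13.5 and 4.2 thus stood well below the other 12 libraries.

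These shares followed the width of the narrowest peak in each list, which is a property of the list and not of any region. The narrowest peak was 159 bp in branch 13.5 and 138 bp in branch 4.2, and between 90 and 129 bp in the other libraries. Over the 14 libraries Pearson's r was −0.962 and Spearman's rho was −0.938. Without branches 13.5 and 4.2, the farthest in narrowest width, r was −0.933. The relation was examined after the values had been seen, and it is not given within trees, which held only 4 or 5 libraries each. A long peak in a library can itself make a region broad, so the choice of regions enters the split shares. Its part in this relation was not tested, so no p is given. The split share was related less closely to the length of the list (r = 0.682, rho = 0.749), and r was 0.475 without branches 13.5 and 14.3. When peaks of a list at most 200 bp apart were first joined, an alternative also chosen after seeing the data, the split share still ran from 10.4% (13.5) to 43.8% (14.2).

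**Figure D3:**
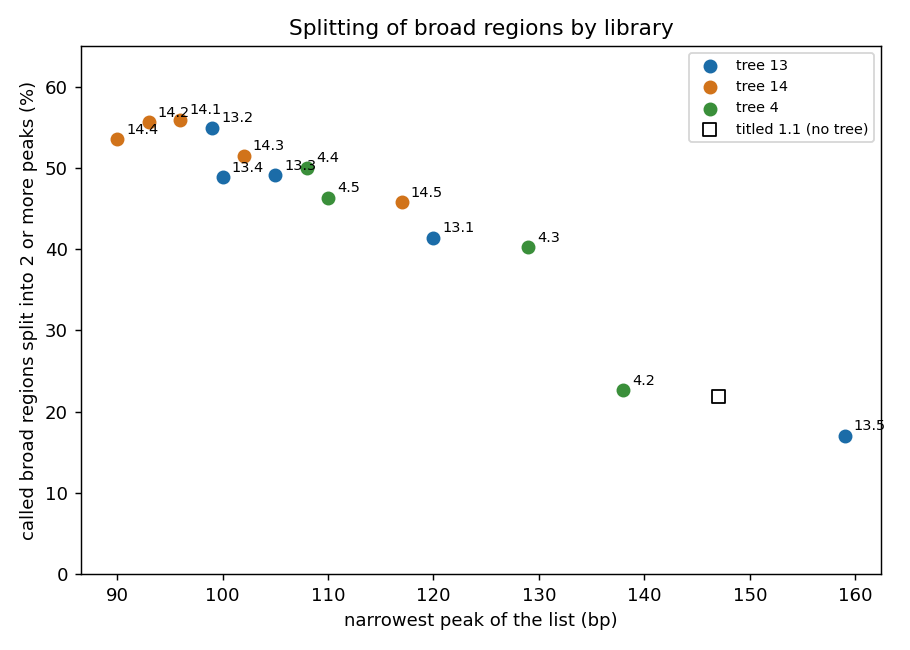
Share of the called broad regions that a library split into 2 or more peaks (%, vertical) against the narrowest peak of its list (bp, horizontal), 1 point per library. The share is 48.8% to 55.9% in the lists whose narrowest peak is 105 bp or less and falls to 17.0% in branch 13.5, whose narrowest peak is 159 bp; the square is the library titled 1.1, which was not used in the correlation.

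The calls were then compared by tree, stem against stem and both stems against tree 4, with 6 measures per library. Of these, the number of peaks of 1000 bp or more, the bases covered and the share of covered bases come from the same peak widths that formed the regions, and are given as values with no p. For regions called and score percentile no difference had an unadjusted p under 0.05 (two-sided exact permutation tests, with p-values adjusted over all 12 differences computed). The split share is not free of the choice of regions, because a long peak in a library can itself make a region broad. It is therefore also given with no p. Branch 4.2 was needed by 88 regions and branch 13.5 by 39. The part of this choice in the split shares was not tested. With 5 libraries against 5 the smallest p possible was 0.00794, and with 10 against 4 it was 0.000999.

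Tree 13 called 95.4% ± 4.08 of the broad regions (SD, n = 5), tree 14 called 97.0% ± 2.74 (SD, n = 5) and tree 4 called 97.5% ± 2.67 (SD, n = 4). The number called ran from 364 in branch 13.5 to all 408 in branch 14.3, and the trees overlapped (exact permutation test, adjusted p = 0.720 for tree 13 against tree 14 and for both stems against tree 4). Without branch 13.5 the difference between tree 13 and tree 14 was −0.0813 percentage points, against −1.52 with it. Across the 14 libraries the percentage followed list length (r = 0.869, rho = 0.801, and r = 0.759 without branches 13.5 and 14.3). This relation is partly built in, since a longer list has more peaks that can touch a region, so no p is given. No broad region was uncalled in a whole tree. All libraries of tree 13 called 354 of the regions, all of tree 14 called 368 and all of tree 4 called 381. Tree 4 needed only 4 libraries to agree, where each stem needed 5, so these counts do not compare the trees. The same counts over all merged regions are not given here.

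The split share was 42.3% ± 14.9 in tree 13 (SD, n = 5), 52.5% ± 4.15 in tree 14 (SD, n = 5) and 39.8% ± 12.1 in tree 4 (SD, n = 4). The difference was −10.2 percentage points between tree 13 and tree 14, and 7.57 between both stems and tree 4. Single libraries moved both: without branch 13.5 they were −4.10 and 11.7, without branch 13.2 the first was −13.6, and without branch 4.2 the second was 2.14. The lowest library of tree 13 (13.5) and of tree 4 (4.2) were also those with the widest narrowest peak, and the part of that width in these differences was not tested.

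Peaks of 1000 bp or more within broad regions numbered 58, 59, 20, 18 and 53 in branches 13.1 to 13.5, 36, 7, 67, 24 and 7 in branches 14.1 to 14.5, and 121, 16, 37 and 36 in branches 4.2 to 4.5. Branch 4.2 alone held 121 of the 559. The means were 41.6 ± 20.8 (SD, n = 5), 28.2 ± 24.9 (SD, n = 5) and 52.5 ± 46.7 (SD, n = 4). The mean of tree 13 was 13.4 above that of tree 14. Both stems minus tree 4 gave −17.6, which turned to 5.23 without branch 4.2.

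The bases covered behaved likewise. Tree 13 covered 57.5% ± 9.11 of the bases in broad regions (SD, n = 5), tree 14 covered 55.3% ± 11.3 (SD, n = 5) and tree 4 covered 61.1% ± 11.5 (SD, n = 4), with the highest values in branch 4.2 (76.1%) and branch 14.3 (71.7%). The difference between tree 13 and tree 14 was 2.23 percentage points and turned to −0.409 without branch 13.2, −0.333 without 14.2 and −0.282 without 14.5. The difference between both stems and tree 4 was −4.67 percentage points with all libraries and 0.609 without branch 4.2. Broad regions held 4.46% ± 1.15 of the bases a library called open in tree 13, 3.77% ± 0.279 in tree 14 and 4.15% ± 0.558 in tree 4. The difference between tree 13 and tree 14, 0.691, was 0.177 without branch 13.5.

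The median score percentile of the best peak was 68.2 ± 5.77, 71.7 ± 2.78 and 69.7 ± 4.33 in the same order. The adjusted p was 0.720 between tree 13 and tree 14 and 0.957 between both stems and tree 4 (exact permutation tests). The difference from tree 4 was 0.313 and ran from −1.80 (without 4.3) to 1.20 (without 4.2) with single libraries left out, and the difference between the stems was −3.51 with all libraries and −1.32 without 13.5.

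**Figure D4:**
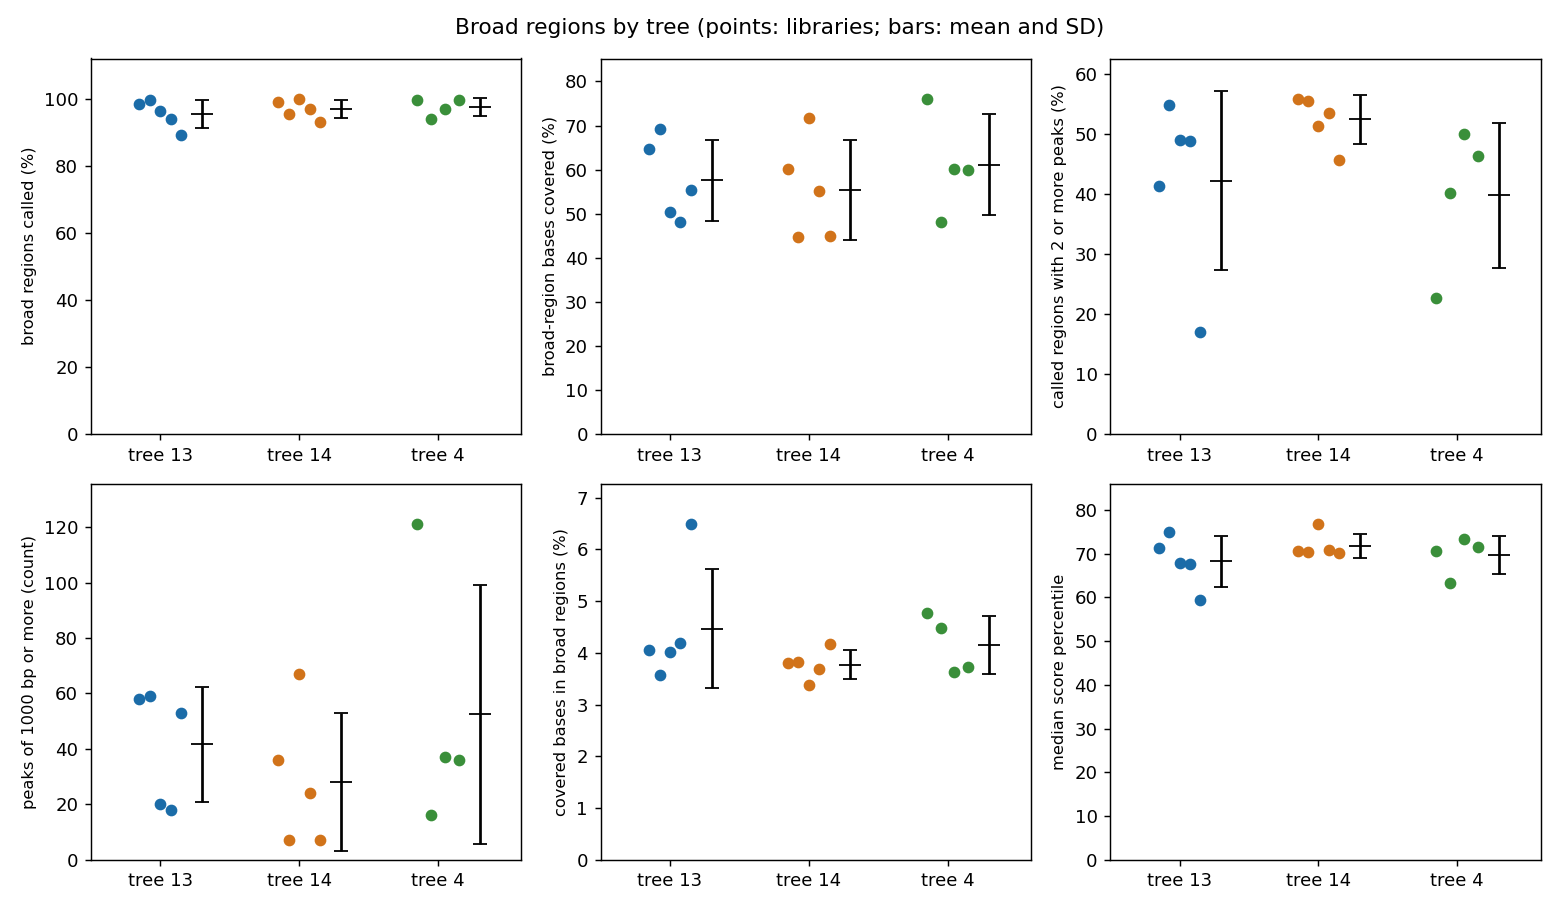
The 6 measures of broad regions for each library (points, placed by branch number within each tree) with the mean and SD of each tree (bars); every vertical axis starts at 0. The trees overlap in every measure, and branches 13.5 and 4.2 give many of the extreme values.

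Merging each tree on its own gave an unequal number of broad regions, with unequal numbers of libraries behind them: 188 from the 5 libraries of tree 13, 124 from the 5 of tree 14 and 199 from the 4 of tree 4. Of the 408 regions, 71 reached 1000 bp in all 3 trees taken alone, 69 in 2 trees, 160 in 1 tree and 108 in none. The 160 were made up of 77 in tree 4, 61 in tree 13 and 22 in tree 14. At least 1 peak of 1000 bp was present in 145 regions for tree 4, 120 for tree 13 and 88 for tree 14. These counts move with single libraries and are given without a test.

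Taken region by region, no broad region passed a test of calling against tree. Calls and missing calls were compared per region (Fisher's exact test, two-sided) for all merged regions able to give p under 0.05 before adjustment. For tree 13 against tree 14 0 of 9024 regions passed 0.05 once adjusted, 274 (3.04%) lay under 0.05 before adjustment, and 13 (0.144%) were called throughout a single stem and nowhere in the other. Of the 408 broad regions 11 entered this test, and 0 passed at either level. The lowest unadjusted p among these 11 was 0.524. For both stems against tree 4 0 of 18566 regions passed once adjusted, 185 (0.996%) lay under 0.05 before adjustment and 3 (0.0162%) were called throughout a side and nowhere in the other. Here 27 broad regions entered the test, 0 passed and the lowest unadjusted p was 0.176. The other 397 and 381 broad regions had a number of calls at which p under 0.05 could not be reached, mostly because nearly every library called them. Fisher's exact test can give no p below 0.00794 with 5 libraries against 5, or below 0.000999 with 10 against 4. After adjustment over 9024 or 18566 regions, 1 region could pass only if very many others reached the lowest p. The 0 regions that passed therefore do not show that the trees were alike.

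Among regions called in all 14 libraries, broad regions did not score higher than narrower ones. The median score percentile of the best peak, averaged over libraries, was 73.7 ± 4.71 in the 340 broad regions and 77.8 ± 6.54 in the 9382 narrower ones (SD over n = 14 libraries). The difference was −4.17 ± 2.69 and was below 0 in 13 of the 14 libraries, the exception being branch 13.5 at 1.86. The median −log10 q was 7.99 against 8.86. By width the percentile was 76.4 under 300 bp, 78.7 from 300 to under 500 bp, 77.8 from 500 to under 700 bp, 75.6 from 700 to under 1000 bp, 72.8 from 1000 to under 1200 bp and 75.5 at 1200 bp and above. The values are a description, because the peaks that give the score also give the width.

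The broad regions themselves covered nearly the whole range of scores. The mean percentile of a region over the libraries that called it ran from 7.60 to 99.997 with a median of 67.1, and 114 regions lay under 50 while 41 lay at 90 or above. The 30 regions of 1500 bp or more had a median of 73.0, 28 of them were called in all 14 libraries and 24 had a peak of at least 1000 bp. The highest, named after its value was seen, lay on chromosome 14 at 15535278 to 15536480 (1202 bp). It was a single peak in all 14 libraries, with −log10 q from 33.4 to 53.6 and a median of 47.9.

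The last question was where broad regions lie. They were found on all 19 chromosomes, from 6 on chromosome 19 to 49 on chromosome 1. As a share of the merged regions of a chromosome they made up 0.417% on chromosome 19 (6 regions) and 1.26% on chromosome 13 (26 regions), against 0.739% over all. Chromosome 14 had 29 (1.03%). Per Mb between the outermost merged regions this was 0.377 on chromosome 19, 1.60 on chromosome 13 and 1.65 on chromosome 14. With each chromosome cut into 10 equal lengths, the share of merged regions that were broad ran from 0.547% (33 regions, at the first end) to 0.964% (40 regions, in part 5), with no steady change along the chromosome, and was 0.605% in part 9 and 0.906% in part 10. Chromosomes have no replicates here, so the shares were not tested.

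**Figure D5:**
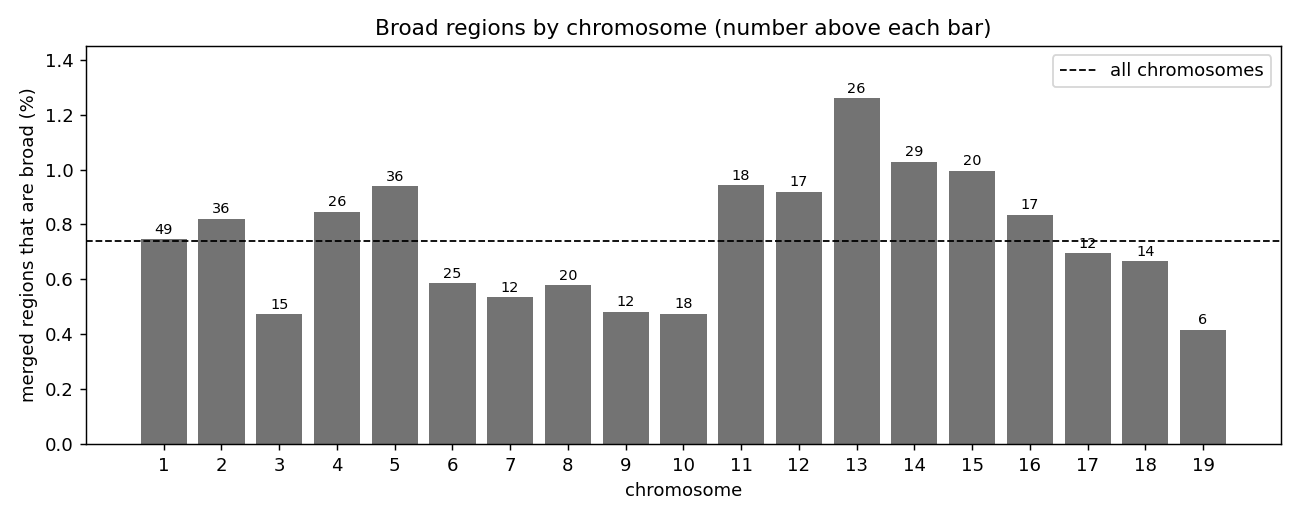
Share of the merged regions of each chromosome that were broad (%, bars), with the number of broad regions above each bar and the share over all chromosomes (0.739%) as a dashed line. Chromosomes 13 and 14 are highest and chromosome 19 is lowest.

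Few broad regions lay close to another broad region. The distance to the nearest other broad region had a median of 238 kb and ran from 2108 bp to 4.67 Mb. Only 15 of the 408 (3.68%, 95% Wilson interval 2.24 to 5.98%, which covers counting error only) had another within 10 kb. The counts were 4 within 5 kb and 39 within 20 kb. How many would lie this close if 408 regions were placed evenly was not computed. A merged region of any width lay within 10 kb of 96.3% of broad regions and of 95.8% of all merged regions. The nearest merged region of any width was a median of 2.16 kb away for the 340 broad regions called in all 14 libraries and 1.35 kb away for the 9382 narrower regions called in all 14. Part of this difference is built in, because merging removes near neighbours.

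The 15 regions formed 7 groups. The only group of 3 spanned 20.4 kb on chromosome 13, from 16169482 to 16189918. Its first member (1101 bp) and second member (1064 bp, starting at 16178191) were a single peak in all 14 libraries. They were among the most significant of all broad regions, with a lowest, median and highest −log10 q of 21.6, 26.3 and 34.4 in the first and 24.8, 35.7 and 40.9 in the second. The member at 16188898 to 16189918 (1020 bp), was different, since it was called in 11 libraries, 6 of them split it, and its −log10 q was between 5.41 and 11.5. The closest pair spanned 4.20 kb on chromosome 17, from 2587281 to 2591485. Both of its members were weak, with mean score percentiles of 27.5 (called in 12 libraries) and 29.1 (called in 11). The other 5 pairs lay on chromosomes 1, 4, 12 and 13, with 2 of them on chromosome 13, and spanned 7.04 to 9.76 kb. Chromosome 13 thus held 3 of the 7 groups.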

How the data were processed

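ATAC-seq was performed by the study on flash-frozen leaves, 1 library per branch. Per library, the authors deposited 1 list of peaks with the start and end of each peak, a score, a −log10 p-value and a −log10 q-value. In every list at least 99.9766% of the deposited scores equalled 10 times −log10 q, cut to a whole number. The study's methods do not describe this assay. The submitters' processing notes name Trimmomatic 0.36, Bowtie 1.1.1 and MACS2 2.1.2 without their roles. The genome build, any shift of reads for the transposase, and whether starts count from 0 or 1 are likewise not given in the sources used. Coordinates are those of the lists, and width is end minus start. Replicates are branches, and whether libraries were prepared in batches is not given. No 2 lists were identical.

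Lists held 12752 to 39613 peaks on the 19 chromosomes, and 49 to 109 peaks per list on other sequences were left out. Peaks of 14 lists were merged. A library called a region if at least 1 base of any of its peaks lay there. Score percentiles were ranks within each list. For each measure, trees were compared by exact permutation tests, two-sided, of the absolute difference in means (252 arrangements of 5 against 5, 1001 of 10 against 4), with Benjamini-Hochberg adjustment over 12 tests, and by Fisher's exact test per region, adjusted over all regions tested. The 12 tests took in all 6 measures, but p-values are printed only for regions called and score percentile. The text names the 5 widest regions, the region with the widest single peak, the 3 with most peaks in 1 library, the 3 called in the fewest libraries, the widest without a peak of 1000 bp, the 2 largest groups with neighbours within 10 kb, up to 4 regions per comparison by Fisher p under 0.05 or all-or-none calling, and the 3 regions on each side of the width limit. Others are marked as chosen after seeing values. The regions, lists and tests were chosen with earlier results of these data known. The merge was checked with a second program on the deposited lists. The permutation test was checked on random numbers, and Fisher's exact test on shuffled calls of these lists with implanted regions. Scripts ran under Python 3.11.15 with scipy 1.17.1, pandas 2.3.3, numpy 2.4.6 and, for figures, matplotlib 3.10.9.

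No gene or sequence is given for any region. Nothing showed that the gene table used here has the same build as the lists: regions ran past its last gene on 8 chromosomes, and 16.8% of merged regions lay within 500 bp of a gene end as placed, against 16.5% after a shift of 50 kb and 16.5% after a shift of 200 kb.

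The results were recomputed with the top 50% of peaks by significance, with peaks of −log10 q 10 or more, with all lists cut to 12752 peaks, with peaks of 159 bp or more, with a 50% overlap, peaks up to 100 bp apart joined, other widths and distances, the set without branches 13.4 and 14.1, each library left out and a replicate block. The set without branches 13.5 and 4.2 and the joining of peaks up to 200 bp apart were added after seeing the data.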

Additional observations from a re-analysis of the deposited data

Results flagged for a closer look

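In 18 sets of values, 6 measures in each of 3 trees, 2 libraries stood apart from the rest of their tree. About 1 set in 20 is marked by chance. Branch 13.5 had 6.48% of its covered bases in broad regions, where the next library of tree 13 had 4.19%. It also had the shortest list, with 12752 peaks. Branch 14.3 had a median score percentile of 76.7 in broad regions, where the next library of tree 14 had 70.8. It also had the longest list, with 39613 peaks.

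The library titled 1.1, which took no part in choosing the regions, called 402 of the 408 broad regions (98.5%), against 47.4% of all merged regions and 99.2% of the narrower regions called in all 14 libraries. Its title and its peak names disagree on the tree, so it was compared with no group.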

How the results depend on the processing

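Of 240 recomputed differences between trees, over all 6 measures, 211 kept their direction and 29 reversed. The 211 include the percentage called at a width of at least 1500 bp, where trees 13 and 14 did not differ. None passed for regions called or score percentile (exact permutation tests). Counting all 6 measures, 4 differences had an unadjusted p under 0.05. Of 90 recomputed counts 73 stayed close and 17 moved. Where a change has no cause named here, the cause was not tested.

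The number of broad regions was 236 with the top 50% of each list by significance, 90 with −log10 q 10 or more, 230 with lists of equal length, 269 without branches 13.5 and 4.2, and 1223, 132 and 30 at 800, 1200 and 1500 bp. Fewer peaks and fewer libraries can only shrink merged regions. The number called in all libraries was 142, 20 and 144 in the first 3 of these, and 86 with a 50% overlap. The number with a peak of 1000 bp or more was 76 with −log10 q 10 or more. The share within 10 kb of another was 2.12% with the top 50%, 2.22% with −log10 q 10 or more, 2.23% without branches 13.5 and 4.2, 0.980% at 5 kb and 9.56% at 20 kb.

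For tree 13 minus tree 14, the percentage of broad regions called was 1.13 with −log10 q 10 or more, 5.93 with lists of equal length, 3.87 with a 50% overlap and 0.112 without branches 13.5 and 4.2. For both stems minus tree 4, the median score percentile was −0.137 with the top 50% and −0.239 with lists of equal length, and the share of covered bases was 0.0624 with peaks of at least 159 bp and 0.00467 without branches 13.4 and 14.1. Without branches 13.5 and 4.2 that comparison gave 0.124 for the percentage called, 0.401 for bases covered and 3.22 for peaks of 1000 bp or more. Broad regions with an unadjusted p under 0.05 (Fisher's exact test) are given as counts of those tested, with all merged regions in brackets. For tree 13 against tree 14 they numbered 4 of 52 with the top 50% (170 of 5364). They numbered 1 of 57 with −log10 q 10 or more (17 of 2342) and 3 of 95 with a 50% overlap (225 of 10086). Against tree 4 there were 3 of 124 with −log10 q 10 or more (47 of 4657). With a 50% overlap there were 2 of 191 (305 of 21742). None passed after adjustment.

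Leaving out each library gave 320 (without branch 4.2) to 405 broad regions, 285 to 343 called in all libraries, 160 to 207 with a peak of 1000 bp or more and 2.50% to 4.05% within 10 kb. For tree 13 minus tree 14 and for both stems minus tree 4 the differences were −2.31 to −0.0813 and −2.46 to −0.354 for the percentage called, −0.409 to 6.67 and −8.99 to 0.609 for bases covered, −13.6 to −4.10 and 2.14 to 11.7 for the split share, 8.10 to 23.1 and −29.8 to 5.23 for peaks of 1000 bp or more, 0.177 to 0.887 and −0.293 to 0.166 for the share of covered bases, and −4.17 to −1.32 and −1.80 to 1.20 for the score percentile. Broad regions at an unadjusted p under 0.05 numbered 0 to 2 and 0.

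Branches with the same number in trees 13 and 14 shared only a number: their deviations from the tree means correlated from −0.0547 to 0.0463 over all regions, and none of 5 pairs was best with its own number. With the replicate block (exact sign-flip test of the 5 pairs) p was 0.4375 for regions called and 0.375 for score percentile, and no call changed. The smallest p possible with this test was 0.0625. Read depth is unknown, so list length and depth cannot be told apart.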

Other observations

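The library titled 1.1 had a narrowest peak of 147 bp and split 88 (21.9%) of the broad regions it called, close to branches 4.2 (138 bp and 22.7%) and 13.5 (159 bp and 17.0%). Its peaks covered 77.7% of the bases in broad regions, above the highest of the 14 libraries (76.1% in branch 4.2). It held 190 peaks of 1000 bp or more, of which 153 lay in broad regions and 37 in regions that were narrower in the other 14. Of the 201 broad regions with no peak of that width in the 14 libraries, 33 had one in this library. Adding it to the merge gave 506 broad regions.

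Of the 12 relations computed between library measures and either narrowest peak width or list length, 3 others were close. All were examined after the values had been seen. The share of covered bases in broad regions was higher in lists with a wider narrowest peak (r = 0.882 and rho = 0.662, n = 14, and r = 0.629 without branches 13.5 and 4.2). It was lower in longer lists (r = −0.841 and rho = −0.930, n = 14, and r = −0.776 without branches 13.5 and 14.3). No p is given for either relation, since this share comes from the peak widths that formed the regions. It is also taken over all bases of the list. The median score percentile in broad regions was higher in longer lists (r = 0.922 and rho = 0.912, n = 14, and r = 0.825 without the same branches). This last relation is partly built in, since a list that adds weaker peaks raises the percentile of every stronger peak, so no p is given for it.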
